A study of Mus musculus with 6 samples.

Results

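Gpnmb and 7 further genes of the lipid-associated macrophage programme, Spp1, Lgals3, Fabp4, Fabp5, Cd9, Lpl and Mmp12, were followed in 6 RNA-seq libraries of mouse myeloid cells. Gpnmb was selected on its abundance in the control libraries, and the other 7 genes were listed by name. They are 8 of the 25751 genes in the count table, and all 8 were among the 14626 genes that passed the filter on low counts of the comparison. The gene identifiers are ENSMUSG00000029816 for Gpnmb, ENSMUSG00000029304 for Spp1, ENSMUSG00000050335 for Lgals3, ENSMUSG00000062515 for Fabp4, ENSMUSG00000027533 for Fabp5, ENSMUSG00000030342 for Cd9, ENSMUSG00000015568 for Lpl and ENSMUSG00000049723 for Mmp12.

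All libraries came from primary cells labelled WT and 24 h. There were 3 control libraries and 3 libraries from cells given trimethylamine N-oxide (TMAO), a metabolite formed in the liver from trimethylamine that gut bacteria make out of choline and carnitine. The labels give neither the TMAO dose nor the age of the animals, and they leave unsaid whether replicates are separate animals, cultures or repeat preparations of 1 culture, so the p-values measure only how much these libraries differed, which may be technical spread. The sample descriptions use the name Control for one group and T-BMDM for the other, with no explanation, so a difference in the origin of the cells cannot be told apart from the treatment.

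Macrophages that take up large amounts of lipid, in adipose tissue, atherosclerotic plaques, injured liver and demyelinated brain, share a transcriptional programme in which Gpnmb, Spp1, Lgals3, Cd9, Lpl, the fatty acid-binding proteins and lysosomal genes are raised. In adipose tissue the programme depends on the lipid receptor TREM2. Its products take up fatty acids, carry them in the cytosol, degrade lipid in the lysosome, and remodel matrix outside the cell.

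The 8 genes took up 3.02% ± 0.0456 of all counts in the control libraries and 1.89% ± 0.0760 in the TMAO libraries (SD, n = 3 each). Much of this sum is Gpnmb, whose control level chose it; the other 7 genes took up 1.18% ± 0.0710 and 0.914% ± 0.0904. With TMAO, Lpl, Mmp12, Fabp5, Fabp4 and Spp1 were lower, Lgals3 was higher, and Cd9 did not pass the test. That is 5 lower, 1 higher and 1 not called among the 7 genes that were tested, where a gene was called when its edgeR p, adjusted over all genes tested, was under 0.05. Over all 14626 genes tested, 65.7% changed, 32.7% lower and 33% higher, so calls in either direction were common in this comparison. Counts of called genes in the lists below are to be read beside these shares. The median log2 fold change of the 7 tested genes was -0.71, and that of all genes tested was 0.01. Levels are given as CPM, counts scaled to a common library total with TMM factors; the groups did not overlap in 6 of the 7 tested genes, in Gpnmb, and in 71% of all genes tested.

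**Figure D1:**
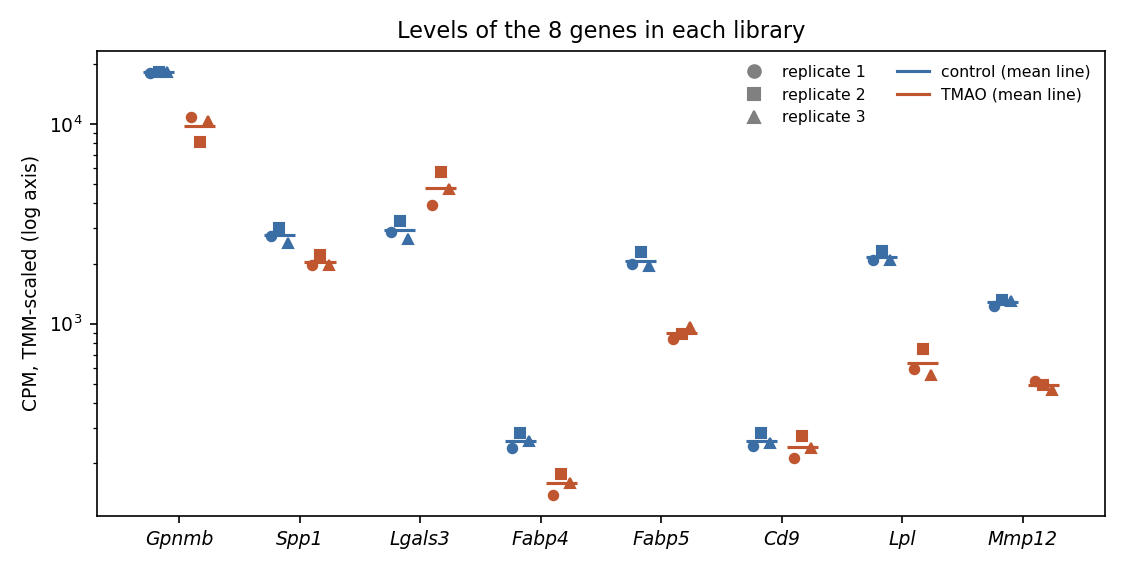
Level of each of the 8 genes in each library, in TMM-scaled CPM on a log axis, with control libraries in blue, TMAO libraries in orange, symbols for the replicate number and a line at the group mean. The groups do not overlap in 7 of the 8 genes, among them Gpnmb, whose control level chose it. Cd9 is the exception.

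Library totals ran from 37759007 to 41735109 counts. The cells carried the RNA of macrophages in both groups: of 14 macrophage identity markers, all were above the filter, 4 were higher with TMAO, 7 were lower and 3 were not called. Their summed level was 45203 to 49849 CPM in the controls and 40202 to 48995 CPM with TMAO. Most of this sum was Lyz2, which was not called, at 37023 ± 2335 CPM in the controls and 37357 ± 4499 CPM with TMAO. The sum therefore says little about the other markers. Mertk, a receptor for the engulfment of dying cells, fell from 162 ± 15.8 to 16.3 ± 3.67 CPM, and Fcgr1, a high-affinity Fc receptor, fell from 251 ± 27.5 to 59.9 ± 0.910 CPM (SD, n = 3). C1qa rose from 142 ± 11.7 to 240 ± 45.4 CPM, and C1qb from 690 ± 71.9 to 1101 ± 189 CPM. Both of these calls were lost with the trend of fold change on transcript length removed (edgeR adjusted p = 0.117 and 0.239).

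Marker RNA of other blood cell types differed between the groups. Of 17 neutrophil granule markers tested, 15 were higher with TMAO, 1 was lower and 1 was not called, and the summed level of the list was 473 to 515 CPM in the controls and 4542 to 5803 CPM with TMAO. Most of the control sum came from Mmp8, at 232 CPM and not called, and from Csf3r, which fell from 167 to 102 CPM. Mpo, the myeloperoxidase of neutrophil granules and their precursors, stood at 0.0413 ± 0.0149 CPM in the controls and at 158 ± 14.9 CPM with TMAO. Most markers of monocytes, dendritic cells and B cells were also higher with TMAO. Of 10 monocyte markers, 9 were higher and 1 was lower, with summed levels of 426 to 528 CPM and 1422 to 1478 CPM. Of 8 dendritic cell markers tested, 6 were higher, 1 was lower and 1 was not called, with summed levels of 60.9 to 64.5 CPM and 76.5 to 81.8 CPM. Most of these sums came from Itgax, which fell from 56.9 to 23.1 CPM, and Ccl22, which rose from 3.65 to 45.5 CPM. Of 7 B cell markers tested, 6 were higher and 1 was not called, with summed levels of 9.05 to 11.4 CPM and 33.1 to 35.5 CPM. Siglech, Cd209a, Pax5 and Ebf1 were at 0 counts in the controls, and no other marker of these 4 lists that is in the table was at 0 in either group. The part of these cells in the differences of the 8 genes was not tested. In bulk RNA, fewer cells of a type and less RNA per cell cannot be told apart.

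Gpnmb encodes a heavily glycosylated transmembrane protein of lysosomes and the cell surface, whose ectodomain can be shed. Its TMM-scaled level was 18008, 18233 and 18247 CPM in the control libraries and 10874, 8171 and 10350.3 CPM in the TMAO libraries. The groups were far apart, and the lowest control was well above the highest TMAO library. The controls were nearly alike, while TMAO replicate 2 stood below the other TMAO libraries. The group means were 18163 ± 134 and 9799 ± 1433 CPM (SD, n = 3), a 1.85-fold lower level with TMAO (log2 fold change -0.89, SE 0.11). Because the control level chose Gpnmb, this difference is a description and carries no test. The SD of log2 CPM was 0.01 in the controls, where the median over all genes tested was 0.14, and 0.22 in the TMAO libraries, where that median was 0.18.

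By raw counts Gpnmb ranked 3, 3 and 4 among all genes in the control libraries and 4, 8 and 6 in the TMAO libraries. On the scale of CPM of the library total without TMM scaling, averaged over the controls, it stood between Fth1, the ferritin heavy chain, at 35906 CPM, and mt-Co1, a mitochondrial subunit of cytochrome c oxidase, at 18002 CPM. It supplied 1.83% ± 0.0291 of all counts in the controls and 0.972% ± 0.166 with TMAO. Within the 8 genes it made up 61.2%, 58.9% and 62.3% of counts in the controls and 57.0%, 43.7% and 53.4% with TMAO. These ranks and shares use the control level that chose Gpnmb, so their differences between the groups are a description and carry no test.

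Promoter windows of 270 bases, from 250 before to 20 after an annotated RNA start, were searched on both strands for 4 short motifs of transcription factors that act in macrophages. The table of RefSeq promoters (GRCm38.p6) held 7 windows for 5 of the 8 genes. The motif set was chosen with the sequences in view, and a match describes letters only. The AP-1 motif TGANTCA was in 7.23% of all 32851 windows, the MiT/TFE E-box CACGTG in 6.569%, the M-box TCATGTG in 3.495% and the PU.1 motif GAGGAAGT in 2.724%. No 2 matches overlapped. The Gpnmb window, chr6:49036268-49036537 on the plus strand, held 1 match, to AP-1 at +9 to +15 counted from the start; it is shown here because Gpnmb is the most abundant of the 8 genes, with the match in capitals.
Gpnmb: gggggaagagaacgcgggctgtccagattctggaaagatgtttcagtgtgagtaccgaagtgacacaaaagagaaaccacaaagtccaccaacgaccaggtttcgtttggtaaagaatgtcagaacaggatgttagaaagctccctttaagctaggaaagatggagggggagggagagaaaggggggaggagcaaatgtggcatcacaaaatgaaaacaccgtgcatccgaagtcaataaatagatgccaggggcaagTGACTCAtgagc

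The Gpnmb profile over the 6 libraries was followed most closely by 5 genes, among 9225 genes whose mean reached 5 CPM, by the root mean square difference of centred log2 CPM. They were Map3k4 and Hs6st1, each at a difference of 0.02, and Mvb12b, Ripor1 and Add1, each at 0.04. Map3k4 is a stress kinase, Hs6st1 a heparan sulphate sulphotransferase, and Add1 a protein of the membrane skeleton. Add1, the one with the highest CPM, stood at 144 ± 1.81 CPM in the controls and 77.6 ± 8.78 CPM with TMAO.

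Of 4 tested relatives and partners of Gpnmb, 1 was higher, 1 was lower and 2 were not called. Sdc4, a heparan sulphate proteoglycan that binds the Gpnmb ectodomain, rose from 121 ± 8.22 to 293 ± 15.7 CPM (log2 fold change 1.27). Adam10, a protease that sheds Gpnmb from the membrane, fell from 265 ± 19.0 to 98.6 ± 4.96 CPM (log2 fold change -1.42). Pmel, the closest relative of Gpnmb and a pigment cell gene, was at 0.385 ± 0.149 and 0.394 ± 0.308 CPM and was not called.

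Spp1 encodes osteopontin, a secreted glycoprotein that binds integrins and CD44. Its level was 2758, 3004 and 2539.9 CPM in the controls and 1966, 2203 and 1968 CPM with TMAO. All controls were above all TMAO libraries, and replicate 2 was the highest of each group. The means were 2767 ± 232 and 2046 ± 136 CPM (SD, n = 3), a 1.35-fold lower level (log2 fold change -0.44, SE 0.10; edgeR adjusted p = 0.00231). With the trend of fold change on transcript length removed, the log2 fold change was -0.88, and tested against a fold of 1.5 the call was lost (adjusted p = 0.999999). The first of its annotated starts, chr5:104434861-104435130 on the plus strand, held the PU.1 motif at -113 to -106, and the other held none of the 4 motifs. PU.1 is the lineage factor of macrophages, and the match is in capitals.
Spp1: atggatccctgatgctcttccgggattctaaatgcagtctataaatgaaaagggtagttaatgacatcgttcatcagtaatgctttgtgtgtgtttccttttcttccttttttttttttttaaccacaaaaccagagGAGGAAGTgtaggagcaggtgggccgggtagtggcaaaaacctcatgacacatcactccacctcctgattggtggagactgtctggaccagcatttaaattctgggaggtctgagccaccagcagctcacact

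Of 9 osteopontin receptors tested, 3 were higher with TMAO, 3 were lower and 3 were not called, and their median log2 fold change was -0.08. These counts were near the shares over all genes tested, 33% higher and 32.7% lower. The fibronectin receptor subunit Itga5 rose from 262 ± 6.15 to 430 ± 15.6 CPM, and Itgb3 from 8.45 ± 1.17 to 13.2 ± 1.34 CPM. Itga4 fell from 175 ± 39.0 to 41.6 ± 3.89 CPM, and Itgb1, the common beta subunit, from 647 ± 24.7 to 341 ± 22.8 CPM. Cd44 was at 526 ± 19.7 and 499 ± 42.9 CPM and was not called. The list median turned to 0.24 when the length trend was removed.

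Lgals3 encodes galectin-3, a lectin that binds beta-galactosides at the cell surface and on damaged lysosomes. Of the 7 tested genes, only Lgals3 was higher with TMAO. Its level was 2892, 3269 and 2655 CPM in the controls and 3938, 5739.9 and 4706 CPM with TMAO. The groups did not overlap, and TMAO replicate 2 was the highest library. The means were 2939 ± 309 and 4794 ± 904 CPM (SD, n = 3), a 1.63-fold higher level (log2 fold change 0.71, SE 0.14; edgeR adjusted p = 0.00109). By raw counts it moved from rank 22, 21 and 23 among all genes to rank 11 in every TMAO library.

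The Lgals3 call did not hold under every setting. With the trend of fold change on transcript length removed, its log2 fold change was 0.24 (edgeR adjusted p = 0.156), and with principal transcripts it was 0.20 (adjusted p = 0.230). Tested against a fold of 1.5 it was also lost (adjusted p = 0.169). In these data the genes in the shortest 20% by transcript length had a median log2 fold change of 0.49, and those in the longest 20% had -0.53; the longest Lgals3 transcript has 1419 bases. The part of transcript length in the result was not tested beyond these fits.

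The list of other galectins also holds Lgals3bp, which is not itself a galectin. Of its 5 tested genes, 1 was higher, 3 were lower and 1 was not called, with a median log2 fold change of -0.91. With no filter on low counts the median over 7 genes of the list was 0.29. Of the galectins themselves, Lgals1 was higher, Lgals8 and Lgals9 were lower (log2 fold change -0.94 and -0.91), and Lgals4 was not called (0.31). Lgals3bp, a secreted glycoprotein that binds galectin-3, fell from 1150.3 ± 111 to 163 ± 6.30 CPM (log2 fold change -2.82), opposite in direction to Lgals3. Lgals8 fell from 141 ± 8.15 to 73.3 ± 6.86 CPM. Lgals1 rose from 759 ± 98.1 to 1178 ± 183 CPM (log2 fold change 0.64), and its direction turned to -0.13 when the trend on principal transcript length was removed. The genes nearest to the Lgals3 profile were Plekhj1 and C1qb, a subunit of complement C1q, each at a root mean square difference of 0.03.

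Fabp4 and Fabp5 encode cytosolic carriers of fatty acids, of the adipocyte and the epidermal type, and both are expressed by macrophages. Fabp4 was at 238, 283 and 257 CPM in the controls and at 139, 177 and 159.7 CPM with TMAO. Fabp5 was at 1983, 2281 and 1947 CPM in the controls and at 837, 887 and 958 CPM with TMAO. In neither gene did the groups overlap.

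Fabp4 fell from 259 ± 22.9 to 159 ± 18.8 CPM (SD, n = 3), which is 1.64-fold (log2 fold change -0.71, SE 0.11; edgeR adjusted p = 0.000206). Fabp5 fell from 2070.5 ± 183 to 894 ± 60.8 CPM, which is 2.32-fold (log2 fold change -1.21, SE 0.10; edgeR adjusted p = 2.57e-06). The log2 ratio of Fabp4 to Fabp5 was -3.00 ± 0.07 in the controls and -2.50 ± 0.15 with TMAO. The difference of 0.50 had a two-sided exact permutation p of 0.1, which is the smallest that 3 libraries against 3 can give. With the trend on longest transcript length removed, the log2 fold changes were -0.59 for Fabp4 and -1.28 for Fabp5. With the trend on principal transcript length removed, a setting chosen after seeing the data, they were -1.42 for Fabp4 and -1.88 for Fabp5. The Fabp4 change was thus smaller with the first and larger with the second. Tested against a fold of 1.5 the Fabp4 call was lost (edgeR adjusted p = 0.113).

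The copy Fabp5l2 had 8 counts over all libraries, so few reads were assigned to it. Of the other fatty acid-binding proteins, Fabp7, the brain type, rose from 5.09 ± 0.687 to 27.3 ± 5.17 CPM (log2 fold change 2.42), and Fabp3, the heart type, was not called. The list of 10 adipocyte markers summed to 143 to 165 CPM in the controls and 126 to 145 CPM with TMAO, most of it from Pnpla2. Adipoq, Cidec, Cfd, Retn and Adrb3 were at 0 counts in the controls, and Plin1 and Lep were not in the table. Of the 10 adipocyte markers only Lipe and Pnpla2 were tested; Pnpla2, a triglyceride lipase, was lower and Lipe was not called. The Pnpla2 call, at a log2 fold change of -0.27, was lost without control replicate 1 or 2 or TMAO replicate 1 (adjusted p = 0.0743 to 0.0964).

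Lpl encodes lipoprotein lipase, which releases fatty acids from triglyceride-rich lipoproteins. Its level was 2093, 2316 and 2075 CPM in the controls and 596, 749 and 555 CPM with TMAO. The TMAO libraries were all far below the lowest control. The means were 2161 ± 134 and 633 ± 102 CPM (SD, n = 3), a 3.41-fold lower level and the lowest log2 fold change of the 8 genes (-1.77, SE 0.12; edgeR adjusted p = 8.42e-07). In rank by raw counts Lpl went from 33, 32 and 30 in the controls to 206, 177 and 240 with TMAO. Across all 21 alternatives its log2 fold change lay between -1.91 and -1.57, and each called it lower.

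Of 10 tested lipases and regulators of lipoprotein lipase, 1 was higher, 4 were lower and 5 were not called, with a median log2 fold change of -0.25 (-0.53 with the GC trend removed and -0.39 with the trend on principal transcripts removed). Lipa, the lysosomal acid lipase, fell from 1757 ± 94.2 to 338 ± 29.7 CPM (log2 fold change -2.38). Sel1l, an endoplasmic reticulum protein needed for the maturation of lipoprotein lipase, fell from 183 ± 18.5 to 113 ± 9.25 CPM. Apoe, the apolipoprotein that macrophages secrete with cholesterol, rose from 7529 ± 736 to 15284 ± 1444 CPM (log2 fold change 1.02). Gpihbp1, the endothelial anchor of lipoprotein lipase, was below the filter.

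Mmp12 encodes macrophage metalloelastase, a secreted protease that cleaves elastin. Its level was 1222, 1308 and 1297 CPM in the controls and 514, 495 and 463 CPM with TMAO. The groups were widely separated, and both had a small spread. The means were 1276 ± 46.4 and 491 ± 26.1 CPM (SD, n = 3), a 2.60-fold lower level (log2 fold change -1.38, SE 0.08; edgeR adjusted p = 4.27e-07). Every alternative called it lower, at log2 fold changes between -1.42 and -1.15.

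The promoter table held 2 Mmp12 starts, with different motifs. The first, chr9:7344147-7344416 on the plus strand, held PU.1 on the reverse strand at -88 to -81. The other, chr9:7347124-7347393 on the plus strand, held AP-1 at -44 to -38 and the M-box on the reverse strand at -83 to -77. Both are shown because Mmp12 was the only gene of the 5 whose starts held 3 of the 4 motifs, with matches in capitals. The windows of Lgals3 and Cd9 held none of the 4.
Mmp12 start 1: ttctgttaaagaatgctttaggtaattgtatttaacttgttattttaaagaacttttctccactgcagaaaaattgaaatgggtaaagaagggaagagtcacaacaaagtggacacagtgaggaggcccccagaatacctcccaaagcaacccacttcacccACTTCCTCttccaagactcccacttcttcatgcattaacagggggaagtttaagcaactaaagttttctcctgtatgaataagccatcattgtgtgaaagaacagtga
Mmp12 start 2: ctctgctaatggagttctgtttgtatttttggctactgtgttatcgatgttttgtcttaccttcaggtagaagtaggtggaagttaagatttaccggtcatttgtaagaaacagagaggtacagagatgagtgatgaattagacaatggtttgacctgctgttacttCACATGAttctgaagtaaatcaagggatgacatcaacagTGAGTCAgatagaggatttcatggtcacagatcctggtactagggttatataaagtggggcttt

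Other matrix metalloproteinases and their inhibitors went in both directions, as did the genes tested as a whole, with 33% higher and 32.7% lower. Of 11 tested, 5 were higher, 3 were lower and 3 were not called, and their median log2 fold change was 0.60 (0.32 with the GC trend removed). The collagenase Mmp13 rose from 15.1 ± 1.32 to 70.3 ± 5.89 CPM (log2 fold change 2.22), and the gelatinase Mmp9 fell from 19.5 ± 2.46 to 11.1 ± 1.29 CPM (log2 fold change -0.81). The inhibitor Timp1 rose from 0.618 ± 0.118 to 3.08 ± 0.407 CPM, and the inhibitor Timp2 fell from 257 ± 9.26 to 122 ± 7.58 CPM. Mmp8, also a neutrophil granule gene, was at 232 ± 4.55 and 249.7 ± 25.6 CPM and was not called.

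Cd9 encodes a tetraspanin, a membrane protein that organises adhesion and fusion partners, and it is the surface marker of lipid-associated macrophages in adipose tissue. Its level was 244, 283 and 251 CPM in the controls and 213, 273 and 238 CPM with TMAO. The groups overlapped, and replicate 2 was the highest in both. The means were 259 ± 20.9 and 241 ± 30.2 CPM (SD, n = 3), and the difference was not called (log2 fold change -0.10, SE 0.11; edgeR adjusted p = 0.417). With the length trend removed Cd9 was called lower (log2 fold change -0.59, adjusted p = 0.000838; with principal transcripts -0.69, adjusted p = 0.000272).

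Of 14 other tetraspanins and CD9 partners, 2 were higher, 8 were lower and 4 were not called, with a median log2 fold change of -0.41. With the length trend removed 10 were lower and the median was -0.71, and with principal transcripts 11 were lower and it was -0.78. Ptgfrn, a direct partner of CD9 in the membrane, fell from 89.9 ± 9.67 to 21.2 ± 2.93 CPM (log2 fold change -2.08), and Tspan4 fell from 165 ± 10.05 to 58.1 ± 5.08 CPM (log2 fold change -1.51). Tspan32 rose from 13.2 ± 0.835 to 20.7 ± 1.10 CPM.

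**Figure D2:**
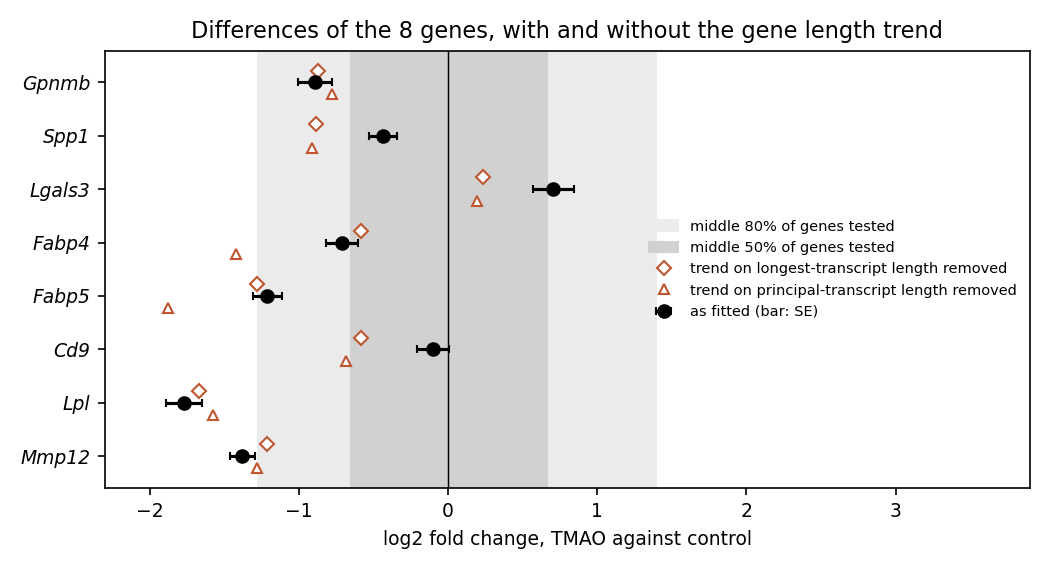
Log2 fold change of each of the 8 genes, TMAO against control, as fitted (black, bar 1 SE) and with the trend on transcript length removed (orange, diamonds for the longest and triangles for the principal transcript); grey bands hold the middle 50% and 80% of all genes tested. Lgals3 moves from 0.71 to 0.24 and Cd9 from -0.10 to -0.59 when the trend on the longest transcript is removed.

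The order of the 8 genes within the controls was set per kilobase of transcript. With the longest annotated transcript, Gpnmb was highest at 4907 ± 36.3 CPM per kb, followed by Lgals3 at 2071 ± 218, Spp1 at 1836 ± 154, Fabp5 at 639 ± 56.6, Lpl at 525 ± 32.6, Mmp12 at 285 ± 10.4, Cd9 at 211 ± 17.0 and Fabp4 at 61.3 ± 5.41 CPM per kb. Only Lgals3 and Spp1 were neighbours whose control libraries overlapped. With the principal transcript, which is much shorter for both carriers, Fabp5 stood at 2098 ± 186 CPM per kb, within the spread of Lgals3, and Fabp4 at 289 ± 25.5 CPM per kb, between Mmp12 and Cd9. With TMAO, Lgals3 at 3379 ± 637 CPM per kb was above Gpnmb at 2648 ± 387 CPM per kb, and the libraries of these 2 genes overlapped.

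The 8 genes did not vary as 1 block within a group. TMAO replicate 2 was the lowest TMAO library in Gpnmb, at -0.25 from the group mean of log2 CPM, and the highest in Lgals3, at 0.28, in Lpl, at 0.25, and in Cd9, Fabp4 and Spp1. Mmp12 and Fabp5 had TMAO replicate 2 in the middle. In the controls, replicate 2 was the highest library in 7 of the 8 genes, and in Gpnmb replicate 3 was highest, at 0.01 from the group mean. Leaving out TMAO replicate 2 changed no call of the 7 tested genes.

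**Figure D3:**
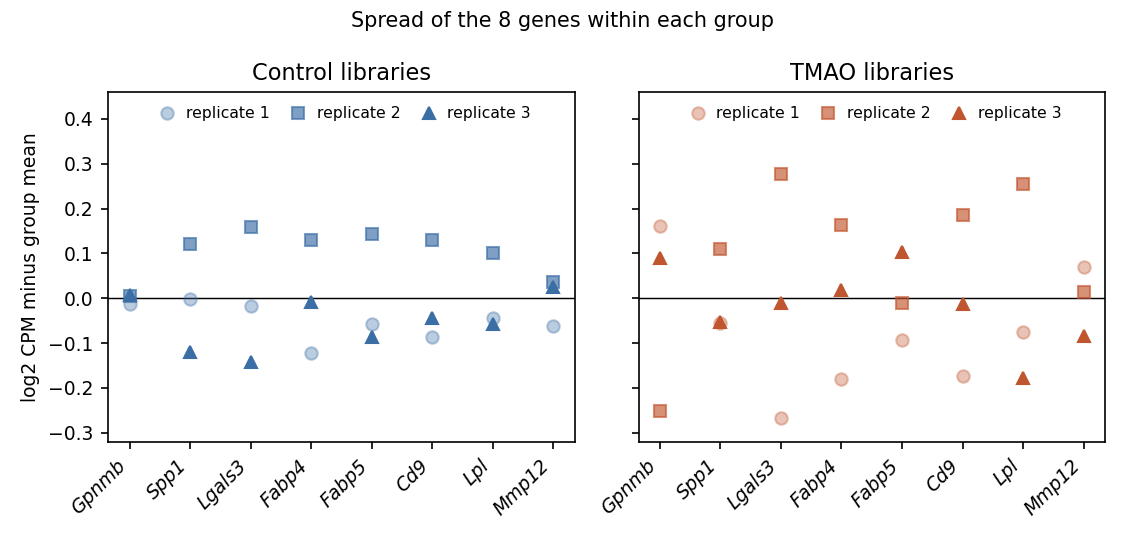
Deviation of log2 CPM from the group mean for each gene and library, in the controls (left) and the TMAO libraries (right), with symbols for the replicate number. TMAO replicate 2 lies at -0.25 for Gpnmb and at 0.28 for Lgals3.

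The wider lipid-associated macrophage programme was read from 30 other genes, all tested. Among them Cd36, Plin2, Fnip2, Lgals1, Cd63, Cd68, Itgax, Lipa, Apoe and Atp6v0d2 are also counted in other lists. The counts and medians of these lists are therefore not separate results. With TMAO 17 of the 30 genes were lower, 6 were higher and 7 were not called, and the median log2 fold change was -0.55. Of all genes tested, 32.7% were lower and 33% higher. Over the 20 alternatives other than the test against a fold of 1.5, 14 to 22 were lower and 4 to 8 were higher. The low of 14 came with the 20 most abundant genes left out, where only 27 of the 30 were tested. Atp6v0d2, a subunit of the lysosomal proton pump, fell from 189 ± 13.3 to 26.7 ± 0.831 CPM (log2 fold change -2.82), beside the fall of Lipa. Ch25h, which makes 25-hydroxycholesterol, rose from 0.13 ± 0.0723 to 12.1 ± 1.11 CPM (log2 fold change 6.49), and the macrophage growth factor Csf1 rose from 23.8 ± 1.86 to 97.8 ± 16.8 CPM (log2 fold change 2.04). Trem2, the receptor on which the programme depends in adipose tissue, was named after its values were seen. It was at 797 ± 89.8 CPM in the controls and 660 ± 68.0 CPM with TMAO, with overlapping groups (log2 fold change -0.27; edgeR adjusted p = 0.0499), and 10 of 21 alternatives called it. Its log2 fold change was -0.06 with the trend on the longest transcript removed (adjusted p = 0.657) and -0.90 with that on the principal transcript (adjusted p = 5.14e-05). Its call was lost without control replicate 1 or 2 or TMAO replicate 1 or 3 (adjusted p = 0.0977 to 0.206).

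The MiT/TFE factors are the family that drives lysosomal genes and Gpnmb in macrophages, and folliculin with its partners and the Rag GTPases hold them at the lysosome. Of 10 genes of this list, 3 were higher, 5 were lower and 2 were not called, and their median log2 fold change was -0.30 (-0.47 with the GC trend removed). The members of the factor family went in both directions. Mitf fell from 115 ± 11.7 to 62.8 ± 1.63 CPM and Tfeb from 42.5 ± 1.74 to 28.1 ± 0.977 CPM. Tfe3 rose from 151 ± 3.81 to 213 ± 16.7 CPM, and Tfec, the macrophage-restricted member, from 20.4 ± 1.36 to 76.6 ± 6.48 CPM.

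The folliculin partners fell, Fnip1 from 112 ± 18.7 to 57.9 ± 7.86 CPM and Fnip2 from 430.5 ± 53.4 to 161 ± 15.9 CPM, while Flcn itself was at 99.2 ± 1.43 and 98.9 ± 13.5 CPM and was not called. Of the Rag GTPases, Rragd fell from 23.7 ± 3.42 to 10.2 ± 0.711 CPM, Rraga rose from 63.0 ± 6.18 to 103 ± 2.28 CPM, and Rragc was not called. These are levels of RNA, and the place of the proteins in the cell was not measured.

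Fabp4, Lpl and Cd36 are known targets of the fatty acid receptor PPARgamma. Of 10 tested genes for PPAR and LXR receptors and partners, 4 were higher, 5 were lower and 1 was not called, where 33% of all genes tested were higher and 32.7% lower. Their median log2 fold change was -0.07. The median turned to 0.01 with the length trend removed, and with the GC trend removed it was -0.32, with 1 gene higher and 5 lower. Pparg fell from 10.5 ± 1.35 to 5.96 ± 0.389 CPM, and its partner Rxra from 128 ± 7.20 to 59.0 ± 8.08 CPM. The corepressor Ncor1 fell from 174 ± 26.8 to 75.6 ± 15.0 CPM. The factor Cebpb rose from 29.2 ± 4.26 to 117 ± 8.10 CPM. Cebpa rose from 116 ± 7.24 to 155 ± 5.67 CPM (log2 fold change 0.42), and this direction was lost, at -0.00, with the trend on GC content removed.

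Of 10 other PPAR target genes, 7 were lower, 2 were higher and 1 was not called, with a median log2 fold change of -0.58 (-0.90 with the trend on principal transcripts removed). Cd36, a fatty acid and oxidised lipoprotein receptor, fell from 658 ± 56.5 to 251 ± 35.4 CPM (log2 fold change -1.39). Cpt1a, which admits fatty acids to the mitochondrion, fell from 199.6 ± 9.88 to 65.7 ± 9.996 CPM (log2 fold change -1.60). Plin2, the coat protein of lipid droplets, rose from 864 ± 64.2 to 1029 ± 49.1 CPM (log2 fold change 0.25), and its direction turned to -0.11 with the length trend removed. Its call was also lost without control replicate 1 or 3 or TMAO replicate 3 (adjusted p = 0.101 to 0.115). Hadha, a mitochondrial beta-oxidation subunit, rose from 129 ± 2.95 to 149 ± 6.07 CPM (log2 fold change 0.20), and the call was lost without any 1 library except TMAO replicate 1 (adjusted p = 0.0690 to 0.155).

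**Figure D4:**
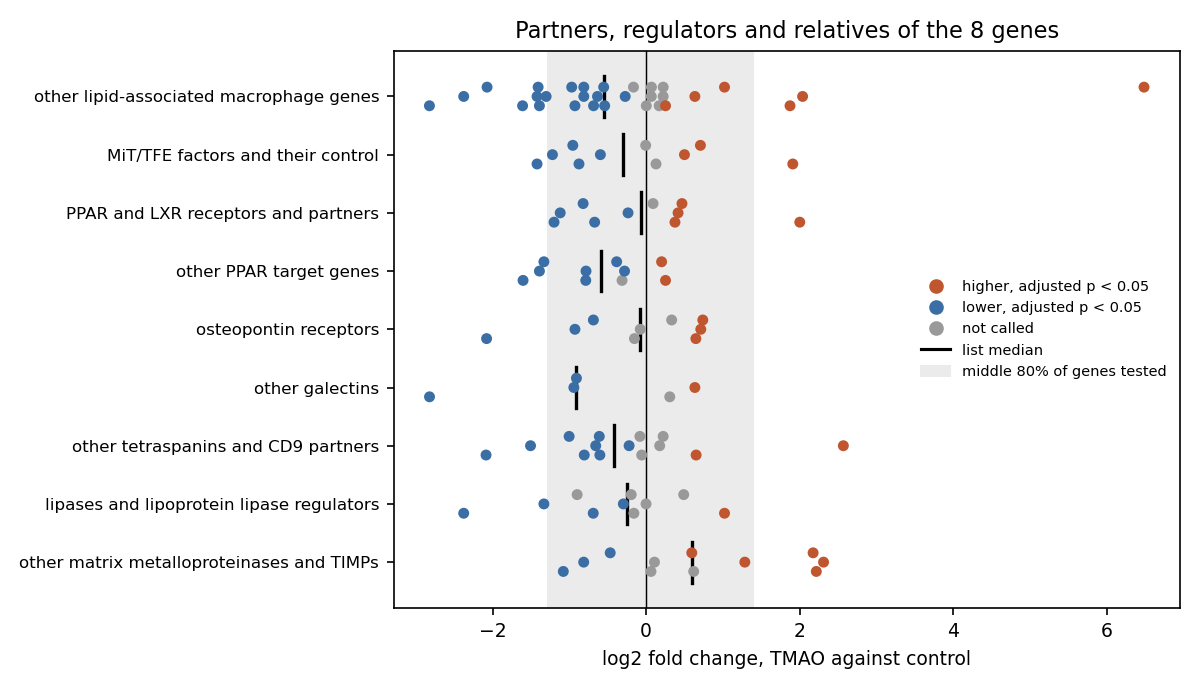
Log2 fold change, TMAO against control, of each tested gene in 9 lists of relatives, partners and regulators, with genes called higher in orange, called lower in blue and not called in grey, a black bar at each list median and a grey band for the middle 80% of all genes tested. As fitted, with no trend removed, the list medians run from -0.91 (other galectins, a list that includes Lgals3bp) to 0.60 (other matrix metalloproteinases and TIMPs).

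Genes of osteoclasts, which share Spp1, Gpnmb and Atp6v0d2 with lipid-laden macrophages, went both ways. Of 8 tested markers 5 were higher and 3 were lower, where 33% of all genes tested were higher and 32.7% lower. The median log2 fold change was 0.34, which turned to -0.06 with the length trend removed. Summed levels were 346 to 372 CPM in the controls and 195 to 197 CPM with TMAO. Nearly all of this fall was Atp6v0d2, which went from 189 ± 13.3 to 26.7 ± 0.831 CPM. Ctsk, the collagen-degrading cathepsin of osteoclasts, rose from 26.1 ± 0.172 to 53.6 ± 5.32 CPM, and the osteoclast factor Nfatc1 fell from 70.0 ± 3.57 to 32.3 ± 2.93 CPM. Calcr and Oscar were at 0 counts in the controls. Of 9 tested endothelial and stromal markers 3 were higher and 6 were not called, with summed levels of 12.0 to 14.3 CPM and 28.0 to 35.6 CPM.

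The remaining nearest profiles were Vim, an intermediate filament gene, for Spp1 and Nptn, an immunoglobulin superfamily protein, for Mmp12, at root mean square differences of 0.04 and 0.03. Vim stood at 3759 ± 342 CPM in the controls and 2826 ± 125 CPM with TMAO. Nptn stood at 485 ± 14.3 and 183 ± 12.0 CPM. For Fabp4 the nearest gene was Tmem254a, at 0.05, for Fabp5 Serhl, at 0.04, for Cd9 Gsto1, at 0.03, and for Lpl Htr2b, a serotonin receptor, at 0.07. Lpl thus had the most distant nearest profile of the 8 genes. The likeness was measured over 6 libraries that all these genes share, and it carries no test.

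Exons of 3 of the 8 genes overlap another annotated gene. Gm42793, on the strand of Spp1, had 467 counts over the 6 libraries. Gm26728, opposite Cd9, had 41, and Mmp1b, opposite Mmp12, had 11.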

How the data were processed

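Poly(A)-selected RNA, fragmented and primed with random hexamers, was sequenced as paired-end libraries, per the labels' protocols. The authors deposited raw counts for each Ensembl gene ID and library in 1 table, as whole numbers that they had not normalized. The submitters' processing notes name GRCm39 as the build. The aligner, counter and strand setting were not given in the sources used here, so reads of a gene and of one that overlaps it, on either strand, cannot be told apart. Groups came from the sample titles, and columns were matched by the sample descriptions.

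Of 25751 gene IDs, 25386 were given symbols from a GENCODE annotation of GRCm38, used also for transcript length and GC content and for exon overlaps. Its coordinates are not printed, and the promoter windows are those of RefSeq on GRCm38.p6. Genes were tested two-sided in R 4.3.3 with edgeR 4.0.16 (TMM scaling, filterByExpr with a minimum count of 10, quasi-likelihood F test, no covariates), and p-values were adjusted by Benjamini-Hochberg over all 14626 genes, with a threshold of 0.05. CPM are TMM-scaled, and log2 CPM use a prior count of 2. Errors are SD over 3 libraries. Chi-square per degree of freedom between libraries of a group was 13.0 to 65.6, so none agreed within sampling noise. The steps were tested on simulated data. The simulation of the calls changed few genes and gave all genes the same dispersion, whereas 65.7% of genes tested were called here. It therefore cannot show how the calls behave in these data.

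The 8 genes and the 19 lists of other genes were chosen with earlier results of these data known. Some genes are in more than 1 list. From each list the text names up to 2 genes called higher and 2 called lower with the smallest p and a mean of at least 1 CPM; regulators may all be named. Some genes examined are left out of the text. Other genes, such as Trem2, Pmel, Cd44 and Mmp8, were named after their values were seen. Alternatives covered other normalizations, filters and tests (DESeq2 1.42.0, limma-voom with limma 3.58.1), trends on length and GC content, a fold of 1.5, a replicate block and each library left out. The trend on principal transcripts was chosen after seeing the data.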

Additional observations from a re-analysis of the deposited data

How the results depend on the processing

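No direction of the 8 genes changed under the alternatives run, 21 for each gene and 20 for Gpnmb and Lgals3, which were among the 20 most abundant genes left out in one of them. With each library left out in turn, every call of the 7 tested genes held. The log2 fold changes then ran from -0.97 to -0.77 for Gpnmb, -0.50 to -0.37 for Spp1, 0.56 to 0.83 for Lgals3, -0.79 to -0.63 for Fabp4, -1.26 to -1.14 for Fabp5, -0.20 to -0.02 for Cd9, -1.91 to -1.68 for Lpl and -1.42 to -1.34 for Mmp12, and 4392 to 4955 genes were higher and 4225 to 4976 lower. Calls of Lgals3 and Cd9 changed with the length trend removed, at 0.24 and -0.59, and with principal transcripts, at 0.20 and -0.69; the cause was not tested. Against a fold of 1.5, which asks for a larger change, the calls of Spp1 at -0.44, Lgals3 at 0.71 and Fabp4 at -0.71 were lost, and 2630 genes were higher and 2554 lower, in place of 4830 and 4778. Among 65 other named genes, 4 values turned: Cebpa to -0.00392 without the GC trend, Plin2 to -0.11 without the length trend and -0.0866 with principal transcripts, and Lgals1 to -0.13 with principal transcripts. Of all genes called, 48.1% were lower with upper-quartile factors and 55.0% with the GC trend removed, the lowest and highest shares over the 21 alternatives.

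The labels do not say whether same-numbered libraries are paired. In their deviations from the group means these libraries correlated at 0.03, 0.13 and -0.07. Only the libraries numbered 2 were each other's best match. With 3 libraries in each group these values cannot decide whether the libraries are paired. With the replicate number as a block, 4887 genes were higher and 4836 lower, the log2 fold change of Lpl was -1.78 and that of Gpnmb -0.90, no call of the 7 tested genes changed, and among the other named genes the call of Hadha was lost (0.20, edgeR adjusted p = 0.0673).

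Depth does not limit the 8 genes, which had at least 5516 counts in every library. The number of libraries does, and 3 against 3 cannot go below an exact permutation p of 0.1 for a single value.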
